A study of Mus musculus with 4 samples.

Results

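The 41 genes described here encode splicing factors and the CLK kinases that phosphorylate some of them. They were taken by gene symbol from a list of SR proteins, hnRNPs, core splicing factors and CLK kinases, a rule with no threshold on a measured value. All 41 were found among the 53379 gene identifiers of the count table, and all 41 passed the filter on low counts that left 18422 genes for the test. The RNA came from tumour-associated macrophages, sorted as cells positive for CD45, CD11b and F4/80 from tumours of MC38, a mouse colon carcinoma line, 21 days after implantation into C57BL/6J mice. There were 2 mice on a high-fat diet (HFD) and 2 on a control diet (CD), each with 1 library. No genetic change of the hosts is named, and all 4 mice carried the same tumour line. The comparison asks whether levels of these transcripts in the sorted cells differed with the diet of the host. In sorted bulk RNA, fewer cells of a type and less RNA per cell cannot be told apart.

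Splicing removes introns from pre-mRNA at sites that are chosen by proteins bound to the RNA. SR proteins carry domains rich in arginine and serine and mostly favour the use of an exon, many hnRNPs oppose it, and factors at the branch point and the 3′ splice site recruit the U2 snRNP. CLK kinases phosphorylate the RS domains and release SR proteins from nuclear speckles, where Son and Srrm2 form the scaffold. Stimulated macrophages are known to change the splicing of many immune transcripts. Many genes of SR proteins and hnRNPs hold exons with an early stop codon, whose inclusion sends the transcript to nonsense-mediated decay and limits the protein.

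Total counts ran from 34148682 to 37159552 per library. Pearson's correlation of log2 CPM (counts scaled to a common library size) over tested genes was 0.990 between the HFD libraries, 0.977 between the CD libraries and 0.932 to 0.947 across diets. The sort markers were present in all 4 libraries, Ptprc (CD45) at 402 to 573 CPM, Itgam (CD11b) at 348 to 482 CPM and Adgre1 (F4/80) at 226 to 377 CPM. Of 8 macrophage markers edgeR called 0 (1 at an unadjusted p below 0.05), and their summed levels were 11893 and 12507 CPM in HFD and 7888 and 11414 CPM in CD libraries. Among markers of other cells, 7 of 10 fibroblast and pericyte genes were called higher in HFD libraries (summed 2075 and 2080 CPM against 1036 and 779 CPM). In the other direction, 6 of 9 tested neutrophil genes (summed 88.6 and 89.6 CPM against 270 and 119 CPM) and 6 of 7 epithelial tumour genes (39.5 and 46.0 CPM against 157 and 116 CPM) were called lower. So were 2 of 8 dendritic cell genes (21.4 and 27.7 CPM against 90.4 and 55.2 CPM), 2 of 11 immediate early genes (8669 and 9364 CPM against 11933 and 8565 CPM) and 1 of 5 tested B cell genes (201 and 187 CPM against 112 and 221 CPM). Of 10 T and NK cell genes 1 was called higher and 1 lower (25.6 and 23.9 CPM against 73.8 and 20.4 CPM). The 13 mitochondrially encoded transcripts, of which 5 had no reads, summed to 24695, 14366, 6510 and 9522 CPM in HFD mice 1 and 2 and CD mice 1 and 2. The part of these differences in the results below was not tested.

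Most transcripts of the splicing factors did not pass the test between the diets. With a gene called at an adjusted p below 0.05 (edgeR quasi-likelihood test, Benjamini-Hochberg adjustment over all tested genes), 1 of the 41 members, Hnrnpd, was higher in the HFD libraries and 0 were lower. Over all 18422 tested genes 2.61% were called higher and 7.91% lower. Many of those genes had few reads. Among the 9798 genes with an average log2 CPM no lower than that of the lowest member, 2.96% were called higher and 4.87% lower. At an unadjusted p below 0.05 there were 5 higher and 3 lower members, or 19.5% of them. That level was reached by 28.2% of these 9798 genes and by 31.3% of all tested genes. DESeq2 called Hnrnpd and Srsf10 higher and Srrm2 lower. Without CD mouse 2, which left 1 CD library, log2 fold changes were 0.78 in Hnrnpd, 0.82 in Srsf1, 1.10 in Srsf10 and 1.02 in Tra2b. Hnrnpk then stood at 0.58, Hnrnpa3 at 0.76 and Srrm2 at -0.59.

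The log2 fold change, high-fat minus control diet, had a median of -0.01 over the members and 0.00 over all tested genes. It ran from -0.59 in Srrm2 to 0.81 in Srsf10, with 20 positive and 21 negative values. In 12 alternative fits 27 members kept their sign throughout and 14 took the other sign at least once. Its median size regardless of sign was 0.23 in the members, 0.27 in the genes at their levels and 0.39 in all tested genes. The 95% interval lay inside a 2-fold change either way in 35 of 41 members (85.4%), against 76.4% of genes at their levels and 48.3% of all. The intervals of the other 6, Srsf1, Srsf10, Tra2b, Hnrnpd, Ptbp3 and Mbnl1, reached past 2-fold on the higher side.

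**Figure D1:**
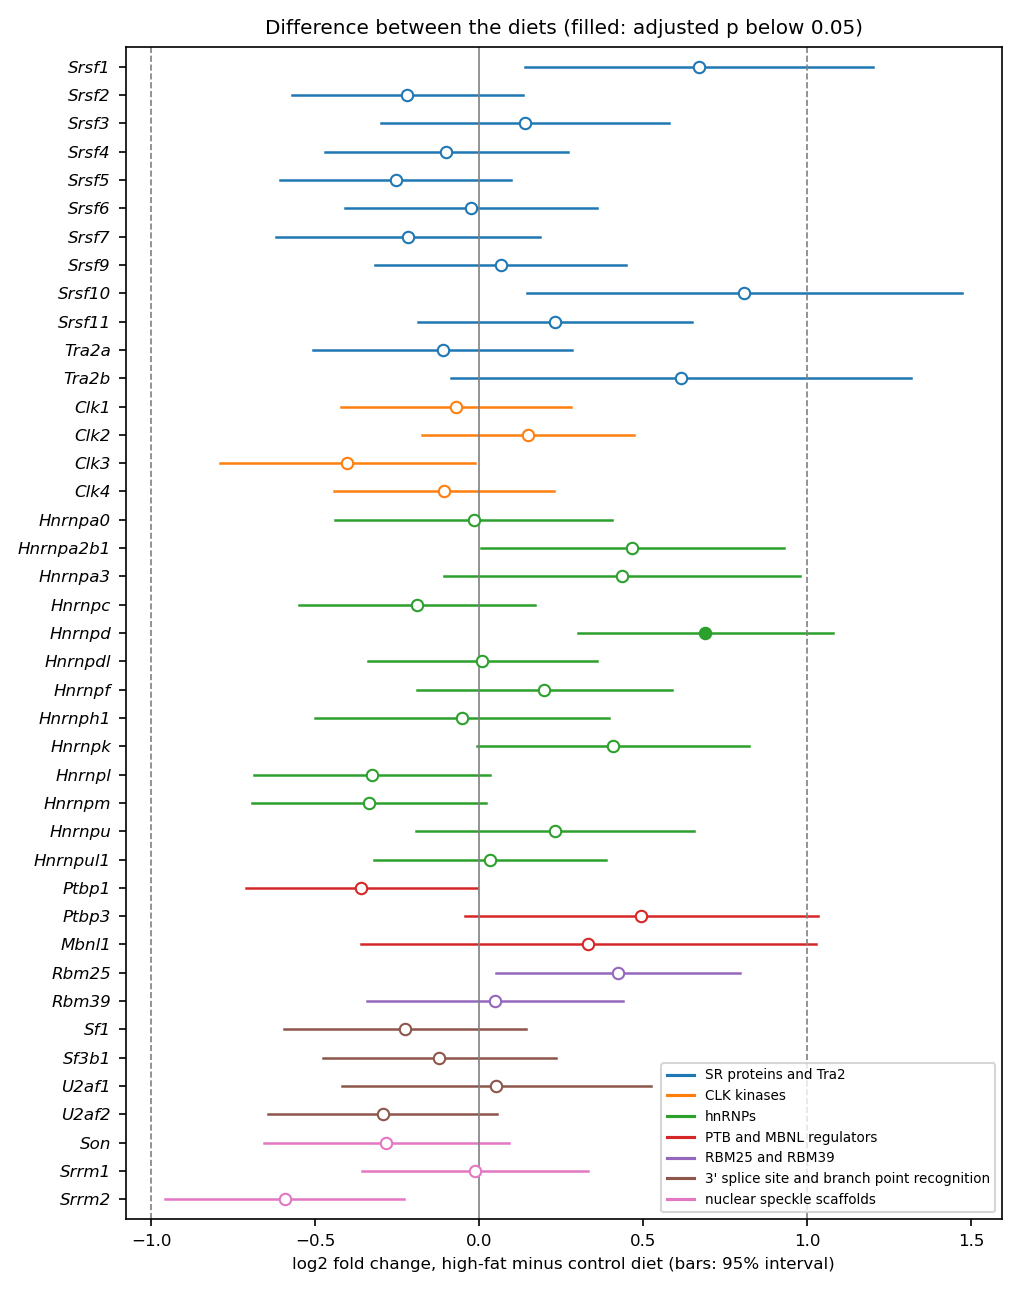
Log2 fold change of each of the 41 members, high-fat minus control diet, on the x axis, with 95% intervals as bars, colours for the 7 role groups and dashed lines at 2-fold either way. The filled point is Hnrnpd, the 1 member called, and 35 of the intervals stay between the dashed lines.

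In 12 members both HFD libraries lay above both CD libraries, where 32.2% of all tested genes did so. In 14 members both lay below, where 31.6% of all tested genes did. The diets overlapped in the other 15. The 26 members without overlap are thus 63.4% of the members, close to the 63.8% of all tested genes. Of the 12 members on the higher side, 11 had the same order of libraries, from HFD mouse 1 over HFD mouse 2 and CD mouse 2 down to CD mouse 1. The summed mitochondrially encoded transcripts above had that order too. It was found in 26.8% of all 41 members and in 15.5% of the 9798 genes at their levels.

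**Figure D2:**
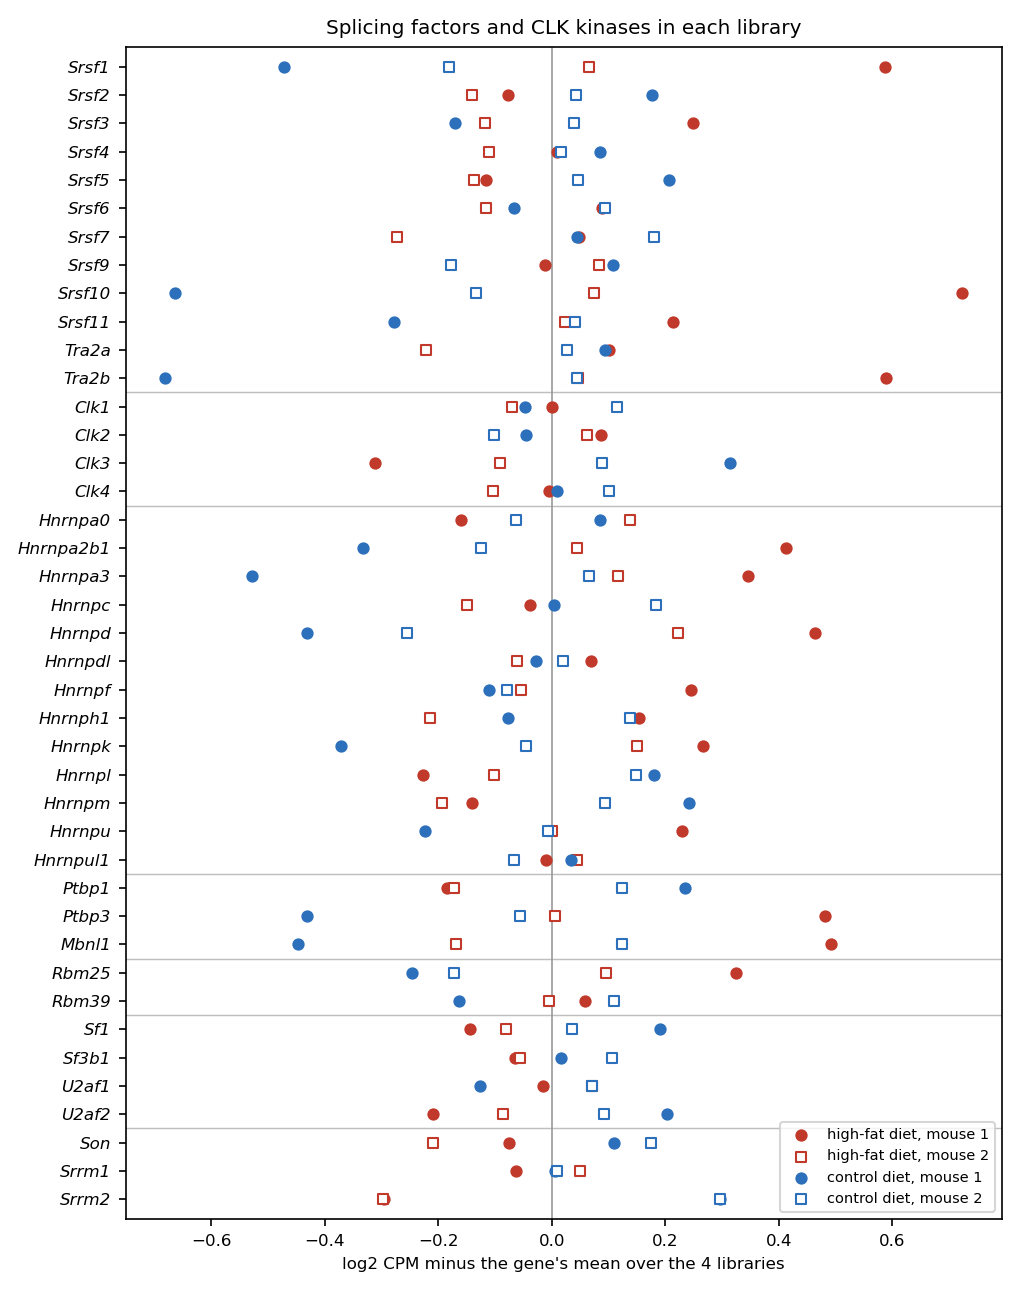
Level of each member in the 4 libraries, as log2 CPM minus the gene's own mean over the libraries, with red for high-fat and blue for control diet, filled circles for mouse 1 and open squares for mouse 2. High-fat-diet mouse 1 is the highest library in 18 of 41 members and CD mouse 1 the lowest in 16.

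The member called was Hnrnpd, which encodes AUF1, a protein that binds AU-rich elements in the mRNAs of cytokines and other short-lived transcripts and acts on their decay. It lies on chromosome 5 from 99955935 to 99978938 on the minus strand (GRCm38). Hnrnpd had 186 and 157 CPM in HFD mice 1 and 2 and 99.9 and 113 CPM in CD mice 1 and 2. Both HFD libraries were above both CD libraries, and the gap between the diets was wider than the gap within either. The means were 172 ± 20.2 and 106 ± 9.16 CPM (SD, n = 2). The log2 fold change was 0.69 (SE 0.16, 95% interval 0.30 to 1.08, edgeR adjusted p = 0.0476). The call ended without HFD mouse 1 (adjusted p = 0.267), without HFD mouse 2 (0.115) and without CD mouse 1 (0.0747) and with DESeq2's size factors in edgeR (0.0504). In all of these fits the log2 fold change stayed between 0.58 and 0.83. Its close relative Hnrnpdl, which shares the RNA-binding domains, had 199 and 182 CPM against 186 and 193 CPM, and these libraries overlapped (log2 fold change 0.01, SE 0.14, adjusted p = 0.974). The difference between the 2 relatives was not tested.

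The other 12 hnRNPs were not called. The A/B proteins, which bind across many introns, went from Hnrnpa2b1 with 762 and 590 CPM against 454 and 525 CPM (log2 fold change 0.47, SE 0.19, adjusted p = 0.157) to Hnrnpa0 with 467 and 573 CPM against 553 and 499 CPM (-0.02, SE 0.17, adjusted p = 0.959). Hnrnpa2b1 did not overlap between the diets and Hnrnpa0 did. Hnrnpk, a binder of C-rich RNA, had 255 and 235 CPM against 164 and 205 CPM (0.41, SE 0.17, adjusted p = 0.164). On the lower side stood Hnrnpl, which binds CA repeats and regulates exons of the CD45 gene Ptprc, with 313 and 341 CPM against 415 and 406 CPM (-0.33, SE 0.15, adjusted p = 0.189). Hnrnpm, a binder of GU-rich RNA, had 211 and 203 CPM against 275 and 248 CPM (-0.34, SE 0.15, adjusted p = 0.178). For Hnrnpl and Hnrnpm all HFD values were below all CD values. The remaining 7 were Hnrnpa3, Hnrnpc (which binds uridine tracts), Hnrnpf and Hnrnph1 (both binders of G runs), Hnrnpu (the scaffold attachment factor), its relative Hnrnpul1, and Hnrnpdl above. Their log2 fold changes ran from -0.19 in Hnrnpc to 0.44 in Hnrnpa3, with adjusted p from 0.234 to 0.974. Over the 13 hnRNPs 8 values were positive and 5 negative, with a median of 0.03.

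The 4 CLK kinases were not called. Levels in single libraries stayed within narrow ranges in Clk1, Clk2 and Clk4 and ranged more widely in Clk3. They lie on chr1:58410189-58424066 (Clk1, minus strand), chr3:89164795-89176921 (Clk2, plus strand), chr9:57750624-57765860 (Clk3, minus strand) and chr11:51261730-51281766 (Clk4, plus strand) in GRCm38. Clk1 had 125 and 119 CPM in the HFD mice and 121 and 135 CPM in the CD mice, which overlap (log2 fold change -0.07, 95% interval -0.42 to 0.28, adjusted p = 0.770). Clk2 had 54.4 and 53.5 CPM against 49.7 and 47.7 CPM, the only CLK gene with both HFD libraries on top (0.15, 95% interval -0.18 to 0.47, adjusted p = 0.484). Clk4, the nearest relative of Clk1, had 38.4 and 35.9 CPM against 38.7 and 41.3 CPM, with the first HFD library just under the first CD library (-0.11, 95% interval -0.44 to 0.23, adjusted p = 0.626). Clk3 stood lowest against its control, with 55.9 and 65.1 CPM against 86.2 and 73.7 CPM and no overlap (-0.40, SE 0.16, 95% interval -0.79 to -0.01, adjusted p = 0.150). All of the intervals of the CLK genes lay inside a 2-fold change. Per kilobase of the longest coding transcript, the mean level over the 4 libraries was 69.5 CPM for Clk1, 28.1 for Clk3, 23.8 for Clk2 and 19.8 for Clk4. Much of what is annotated for these genes is not coding: retained-intron transcripts number 7 of 13 in Clk1, 4 of 11 in Clk2, 4 of 9 in Clk3 and 7 of 14 in Clk4 (GENCODE release M21). Counts per gene do not separate them from the coding ones.

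Among the 12 SR and Tra2 genes 0 were called, 6 log2 fold changes were positive and 6 negative, and the median was 0.02. Srsf10, whose protein turns into a general repressor of splicing when it loses its phosphates, differed most in size, with 93.0 and 59.3 CPM against 35.6 and 51.4 CPM (0.81, SE 0.27, adjusted p = 0.108). Srsf1, the founding SR protein, had 273 and 190 CPM against 131 and 160 CPM (0.67, SE 0.22, adjusted p = 0.100). Tra2b, a binder of GAA-rich enhancers, had 83.8 and 57.54 CPM against 34.7 and 57.45 CPM (0.62, SE 0.29, adjusted p = 0.201). In all 3 genes HFD mouse 1 was highest and CD mouse 1 lowest, and the second mice of the diets lay between them. Without CD mouse 2 the log2 fold changes were 1.10 in Srsf10, 0.82 in Srsf1 and 1.02 in Tra2b. Without HFD mouse 1 the same genes stood at 0.47, 0.40 and 0.34 (adjusted p = 0.446, 0.469 and 0.660), and without CD mouse 1 Tra2b stood at 0.30 (adjusted p = 0.444). Srsf2, an SR protein of speckles also known as SC35, had 197 and 188 CPM against 235 and 214 CPM, and Srsf5 had 159 and 156 CPM against 199 and 178 CPM. Both lay below the control diet in both libraries, with log2 fold changes of -0.22 (adjusted p = 0.343) and -0.26 (adjusted p = 0.276). Srsf4 was also below without overlap, at 21.3 and 19.6 CPM against 22.5 and 21.4 CPM (-0.10, adjusted p = 0.686). The diets overlapped in Srsf3 and Srsf7, which link splicing to mRNA export, and in Srsf6, Srsf9, Srsf11 and Tra2a. Their log2 fold changes ran from -0.22 to 0.23.

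Several of these genes carry internal exons of decay transcripts that overlap no exon of a transcript annotated as protein-coding. Overlap with retained-intron and other noncoding transcripts was not checked. Such an exon was found in 14 of the 41 members, and such exons with an annotated stop codon numbered 21. At least 1 transcript annotated for nonsense-mediated decay is present in 32 members, and at least 1 with a retained intron in 36. Of 481 transcripts of the members, 201 are coding, 69 are decay transcripts and 147 retain an intron. The sequences below show such exons in 5 SR and Tra2 genes from their first base to the stop codon, which is in capitals (GENCODE release M21, GRCm38, 5′ to 3′ on the strand of the gene). They are given because the deposited counts are per gene and add transcripts with and without these exons. The stretch of Srsf3 is chr17:29039454-29039487 on the plus strand, in an exon of 456 bases. That of Srsf7 is chr17:80205054-80205081 on the minus strand, in an exon of 460 bases, and that of Srsf11 is chr3:158024209-158024231 on the minus strand, in an exon of 109 bases. Those of Tra2a, chr6:49252965-49253108, and Tra2b, chr16:22259181-22259261, are on the minus strand too, in exons of 306 and 276 bases, and both start with gttaatgtt.
Srsf3: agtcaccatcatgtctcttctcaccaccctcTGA
Srsf7: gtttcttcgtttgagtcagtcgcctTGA
Srsf11: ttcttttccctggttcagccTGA
Tra2a: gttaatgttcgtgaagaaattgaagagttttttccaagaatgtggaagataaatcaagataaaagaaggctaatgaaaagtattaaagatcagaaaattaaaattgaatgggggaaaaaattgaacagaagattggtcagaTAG
Tra2b: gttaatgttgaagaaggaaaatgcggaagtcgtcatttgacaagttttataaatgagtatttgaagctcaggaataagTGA

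The stop follows the start of the exon after 23 bases in Srsf11, 28 in Srsf7, 34 in Srsf3, 81 in Tra2b and 144 in Tra2a, the stop codon included. In these counts the 5 genes had log2 fold changes of 0.23 (Srsf11), -0.22 (Srsf7), 0.14 (Srsf3), 0.62 (Tra2b) and -0.11 (Tra2a), and 0 of them were called. Whether the share of transcripts with such an exon differed between the diets cannot be read from gene counts.

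Of the 3 genes of nuclear speckle scaffolds 0 were called, and Srrm2 and Son lay below the control diet. Srrm2, the large serine- and arginine-rich scaffold, had 617 and 617 CPM in the HFD libraries and 930.2 and 930.8 CPM in the CD libraries. The mice of a diet were almost equal, but 2 values are a poor measure of the spread between mice. The log2 fold change was -0.59 (SE 0.15, 95% interval -0.96 to -0.23). The edgeR adjusted p was 0.0571, which takes its spread from the trend over genes as well. DESeq2 called it lower (adjusted p = 0.00447). Without CD mouse 2 the log2 fold change in edgeR was -0.59. With the correction for GC content and length described below it stood at -0.30 (adjusted p = 0.141). Son, which anchors the speckle with Srrm2, had 603 and 549.6 CPM against 685 and 718 CPM, also without overlap (-0.28, SE 0.15, adjusted p = 0.257). Srrm1, a coactivator of splicing, had 186 and 201 CPM against 195 and 196 CPM and overlapped (-0.01, SE 0.14, adjusted p = 0.958).

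Of the factors at the branch point and the 3′ splice site, 3 of 4 lay below the control diet without overlap, as 31.6% of all tested genes did, and 0 were called. Sf1, which binds the branch point first, had 347 and 362 CPM against 437 and 393 CPM (-0.23, adjusted p = 0.347). Sf3b1, the U2 snRNP subunit that takes over the branch point, had 369 and 371 CPM against 390 and 415 CPM (-0.12, adjusted p = 0.604). U2af2, which reads the polypyrimidine tract, had 122 and 132 CPM against 162 and 150 CPM (-0.30, adjusted p = 0.216). Its partner U2af1, which reads the AG of the site, overlapped at 9.72 and 10.3 CPM against 9.0 and 10.3 CPM (0.05, adjusted p = 0.878).

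The remaining regulators split. Ptbp1, which represses exons next to pyrimidine tracts, had 246 and 248 CPM against 329 and 304 CPM, with both HFD libraries below (-0.36, SE 0.15, adjusted p = 0.154). Its relative Ptbp3 had 341 and 246 CPM against 181 and 235 CPM, with both above (0.49, SE 0.22, adjusted p = 0.186). Mbnl1, a muscleblind protein, had 425 and 269 CPM against 222 and 330 CPM, a wide spread within both diets, and overlapped (0.33, SE 0.29, adjusted p = 0.461). Rbm25, which works with the U1 snRNP, had 205 and 175 CPM against 138 and 145 CPM without overlap (0.42, SE 0.15, adjusted p = 0.124), and Rbm39, a relative of U2af2, had 238 and 228 CPM against 204 and 246 CPM (0.05, adjusted p = 0.866). The signs of Ptbp1 and Ptbp3 differ, but the difference between them was not tested.

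Differences among the members moved with the base composition of their transcripts, within a diet as well as between diets. Over the 41 members the GC content of the longest coding transcript ran from 38.9 to 58.8% (median 44.6%, against 49.7% over all tested genes). Pearson's r of the log2 fold change with GC content was -0.56 (Spearman's rho -0.56). For CD mouse 2 over mouse 1 it was -0.74 (rho -0.79), and for HFD mouse 1 over mouse 2 it was -0.75 (rho -0.77). These within-diet ratios also ran together, with r = 0.76 (rho 0.73) over the members although they share no library. Over 10309 genes whose mean log2 CPM was 3 or more the first 3 values of r were -0.26, -0.41 and -0.53, and over 10312 such genes the last was 0.19. All are descriptions across genes that share the same 4 libraries. The 12 members above the control diet had a median GC content of 41.7%, the 14 below 51.1% and the 15 that overlap 45.0%.

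**Figure D3:**
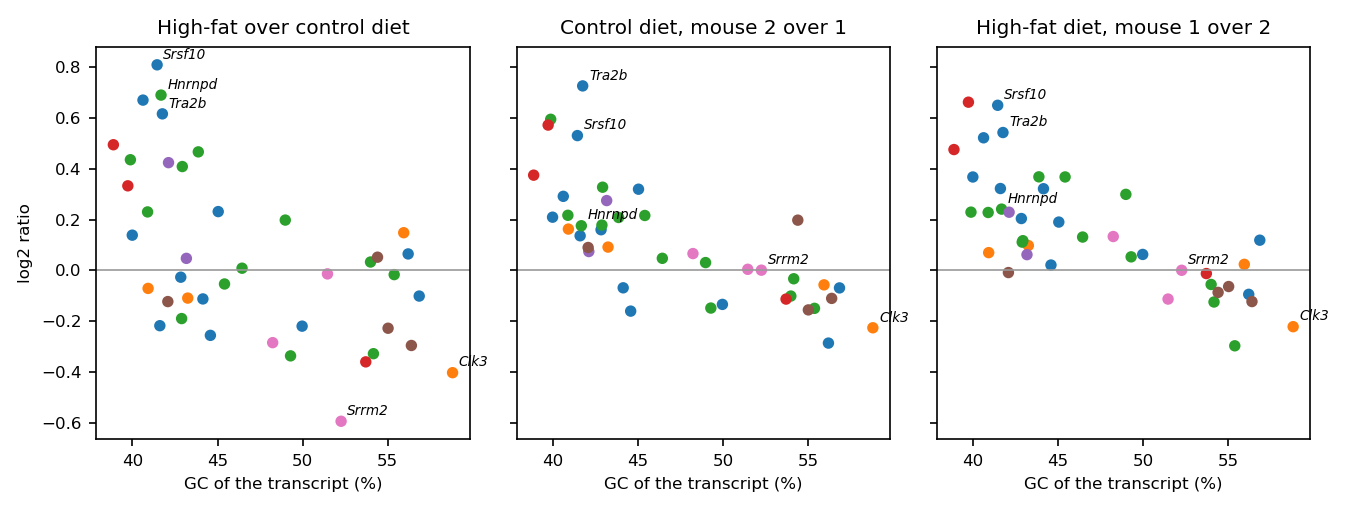
Log2 ratio on the y axis against the GC content of the longest coding transcript (%) on the x axis for the 41 members, between the diets (left), between the CD mice (middle) and between the HFD mice (right), with 1 point per gene coloured by role group as in the plot of fold changes. In each panel AT-rich members lie higher than GC-rich ones, with r of -0.56, -0.74 and -0.75.

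With a correction of each library for GC content and transcript length, an alternative chosen after seeing the data, Hnrnpd was called higher at a smaller size (log2 fold change 0.50, adjusted p = 0.0359). Srsf7 (-0.58, adjusted p = 0.0268) and Hnrnpc (-0.44, adjusted p = 0.0471) were then called lower, 2 members against 0 without the correction. Several members on the higher side came closer to 0, Srsf1 from 0.67 to 0.34, Ptbp3 from 0.49 to 0.10, Hnrnpa3 from 0.44 to 0.08, Rbm25 from 0.42 to 0.16, Srsf10 from 0.81 to 0.49, Tra2b from 0.62 to 0.32, Hnrnpk from 0.41 to 0.17 and Hnrnpa2b1 from 0.47 to 0.21. On the lower side Srrm2 went from -0.59 to -0.30, Son from -0.28 to -0.09 and Sf1 from -0.23 to -0.05. Clk1 went the other way, from -0.07 to -0.49 (adjusted p = 0.0539), and so did Clk4, from -0.11 to -0.38 (adjusted p = 0.0708). Srsf3 changed sign, from 0.14 to -0.33 (adjusted p = 0.0953), as did Srsf4, Hnrnpa0, Hnrnpdl, Mbnl1, Rbm39 and Srrm1 at sizes of 0.19 or less. Over all genes 713 were then called higher and 1773 lower.

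Several members had many reads on their processed pseudogenes, intronless copies of the mRNA that can match it almost base for base. Of the 41 members 16 had at least 1 annotated pseudogene that matched at 90% identity or more over 300 bases or more, 65 pseudogenes in all. How reads that fit both places were counted is not given in the sources used here, so the counts of these members are uncertain. In 10 members the pseudogenes held over 25% of the reads on gene and copies together. In 3 they held more than the gene itself, 80.3% for U2af1, 65.5% for Hnrnpk and 57.7% for Tra2b. The leading copies were Gm10232 for U2af1 (99.7% identity, 40.4 and 37.2 CPM against 37.1 and 42.7 CPM), Gm7964 for Hnrnpk (99.2%, 391 and 384 CPM against 362 and 389 CPM) and Gm10254 for Tra2b (98.7%, 66.2 and 62.1 CPM against 69.6 and 72.9 CPM). These copies overlapped between the diets for U2af1 and Hnrnpk, and Gm10254 lay lower in both HFD libraries while Tra2b lay higher. Hnrnpd had no such pseudogene.

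With the reads of the copies added to the gene, an alternative chosen after seeing the data, the log2 fold change of Tra2b went from 0.62 to 0.19 (adjusted p = 0.512). That of Hnrnpk went from 0.41 to 0.17 (adjusted p = 0.491) and that of Hnrnpa3, with 33 pseudogenes, from 0.44 to 0.16 (adjusted p = 0.512). Srsf10 kept most of its size, from 0.81 to 0.64 (adjusted p = 0.141), and Hnrnpa2b1 went from 0.47 to 0.43 (adjusted p = 0.176). The value of U2af1 changed sign, from 0.05 to -0.04 (adjusted p = 0.892). On the lower side the values moved little, Srsf5 from -0.26 to -0.31, Ptbp1 from -0.36 to -0.38 and U2af2 from -0.30 to -0.23.

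**Figure D4:**
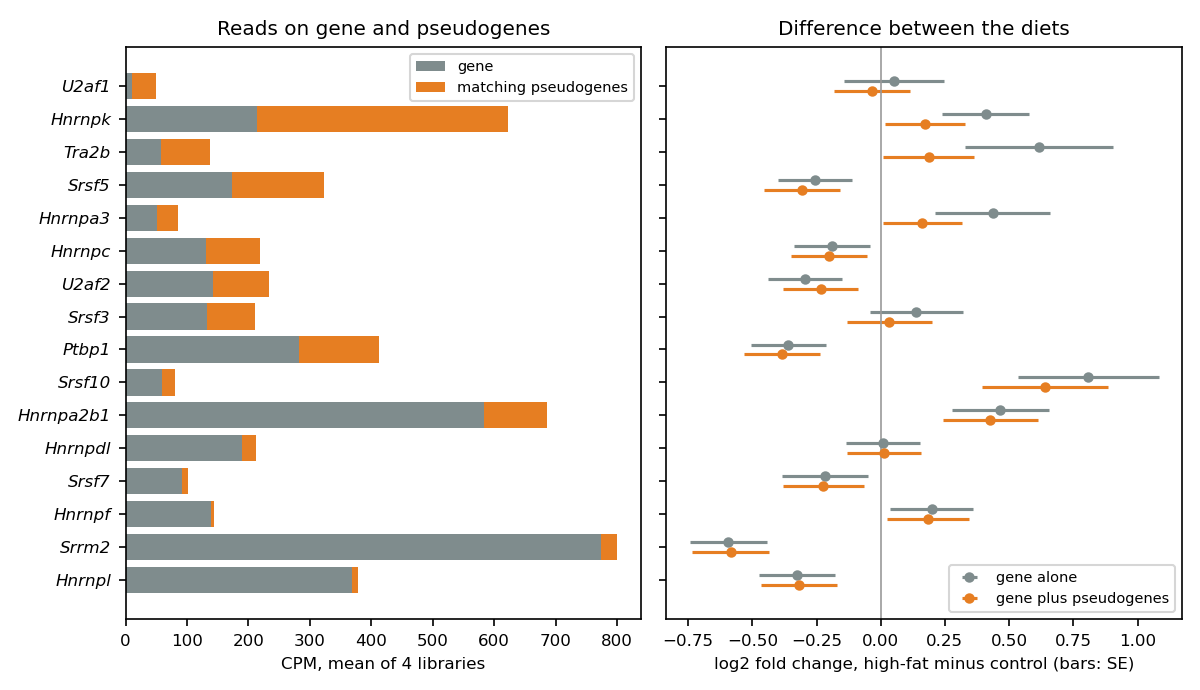
Left, mean CPM over the 4 libraries on the gene (grey) and on its matching pseudogenes (orange) for the 16 members that have one. Right, log2 fold change between the diets with SE bars for the gene alone (grey) and for gene plus pseudogenes (orange), where Hnrnpk, Tra2b and Hnrnpa3 move furthest, to 0.17, 0.19 and 0.16.

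Levels between members are compared per kilobase of the longest coding transcript, as the mean over 4 libraries. Hnrnpa2b1 was highest at 337 CPM per kilobase, followed by Hnrnpa0 at 195, Hnrnpl at 138, Srsf5 at 110.3, Srsf2 at 109.7 and Hnrnpu at 107. The lowest were Srsf4 at 9.40, U2af1 at 9.41, Hnrnpa3 at 9.99, Srsf10 at 15.9 and Tra2b at 17.2. All but Srsf4 of these 5 low members had reads on matching pseudogenes.

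As a set, promoter windows of the members held more CpG, and more often a GC box, than all promoter windows together. A RefSeq promoter window (250 bases before to 50 after the start, GRCm38.p6) was found for 38 of the 41 members. It was not matched for Clk1, Ptbp3 and U2af2. Each member entered with 1 window, also where more are listed, as in Hnrnph1 with 5 and Hnrnpf with 4. The median number of CpG was 29 in the member windows, with a range from 0 in Rbm25 to 52 in Hnrnpa0, and 7 over all 32851 windows. The Rbm25 window starts at 83635460 on chromosome 12, inside the gene, whose annotated start is 83631236. Windows of genes at the members' levels were not compared. Searched on both strands, with each motif counted whether or not it overlapped another, the GC box GGGCGG was in 27 of 38 member windows (71.1%) against 35.7% of all windows. CACGTG was in 6 (15.8%) against 7.15%, CCAAT in 21 (55.3%) against 37.4%, and TATAAA in 5 (13.2%) against 13.6%. The windows of the called member, Hnrnpd, and of the member with the lowest log2 fold change, Srrm2, are printed as examples, with GGGCGG and CACGTG in capitals. That of Hnrnpd, chr5:99978889-99979188 on the minus strand, holds 45 CpG, GGGCGG 3 times and CACGTG once. That of Srrm2, chr17:23802937-23803236 on the plus strand, holds 30 CpG and none of the 4 motifs. It is 1 of 2 windows listed for Srrm2 and lies inside the gene, past its annotated start.
Hnrnpd: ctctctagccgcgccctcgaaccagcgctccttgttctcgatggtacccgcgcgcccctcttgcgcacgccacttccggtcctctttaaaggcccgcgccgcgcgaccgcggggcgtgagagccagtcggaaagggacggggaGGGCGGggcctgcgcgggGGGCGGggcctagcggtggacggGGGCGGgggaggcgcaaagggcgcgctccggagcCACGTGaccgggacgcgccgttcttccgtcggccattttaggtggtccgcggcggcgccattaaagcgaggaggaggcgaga
Srrm2: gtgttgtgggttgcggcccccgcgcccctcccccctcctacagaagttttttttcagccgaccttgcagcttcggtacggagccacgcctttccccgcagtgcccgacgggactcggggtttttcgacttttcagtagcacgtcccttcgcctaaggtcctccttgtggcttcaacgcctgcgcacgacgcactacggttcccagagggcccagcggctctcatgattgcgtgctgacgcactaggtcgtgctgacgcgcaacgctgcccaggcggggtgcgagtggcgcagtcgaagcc

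These matches describe letters in a window and say nothing of a factor bound there.

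Genes just past the 3′ end of members were also counted, since they share a strand and a neighbourhood with them. Within 10 kb downstream on the same strand lay 21 annotated genes, next to 19 members, and 17 were tested. Of these 0 were called higher and 5 lower, where 2.61% and 7.91% of all tested genes were, and the genes were picked for naming after their values were seen. Pygm, the muscle glycogen phosphorylase, starts 6.37 kb past Sf1 and had 0.427 and 0.573 CPM against 32.3 and 26.4 CPM, 58.2-fold lower in the HFD libraries (log2 fold change -5.86, adjusted p = 0.00416). Sf1 itself differed by -0.23. L3mbtl1, 6.35 kb past Srsf6, had 4 and 1 reads against 205 and 165, 77.4-fold lower by the fit (-6.27, adjusted p = 0.00637), where Srsf6 with 258 and 224 CPM against 232 and 259 CPM differed by -0.03. The diets were far apart in both neighbours, close together in Sf1 and overlapping in Srsf6.

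Col23a1, a collagen gene 8.15 kb past Clk4, had 0.294 and 0.365 CPM against 2.49 and 4.06 CPM (-3.30, adjusted p = 0.0142). B230369F24Rik, 2.56 kb past Hnrnpu, had 0.400 and 0.339 CPM against 1.79 and 2.85 CPM (-2.64, adjusted p = 0.0226), and Gm15892, 5.31 kb past Srsf1, had 3 and 2 reads against 20 and 43 (-3.69, adjusted p = 0.0287). All 5 neighbours were lower in both HFD libraries. The calls of Pygm, L3mbtl1 and Col23a1 stood in every fit that left out a library. Those of B230369F24Rik ended without either HFD mouse (adjusted p = 0.0949 and 0.102), as did those of Gm15892 (0.133 and 0.141). Of 22 genes that overlap a member on the opposite strand 19 were tested and 1 was lower, Plppr3 over Ptbp1, with 4.43 and 5.42 CPM against 12.5 and 9.83 CPM (-1.18, adjusted p = 0.0354), a call that ended without either HFD mouse (0.220 and 0.117). The library kit keeps strand, but whether the counting used it is not given in the sources used here. Of 10 genes overlapping on the same strand 8 were tested and 0 called.

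**Figure D5:**
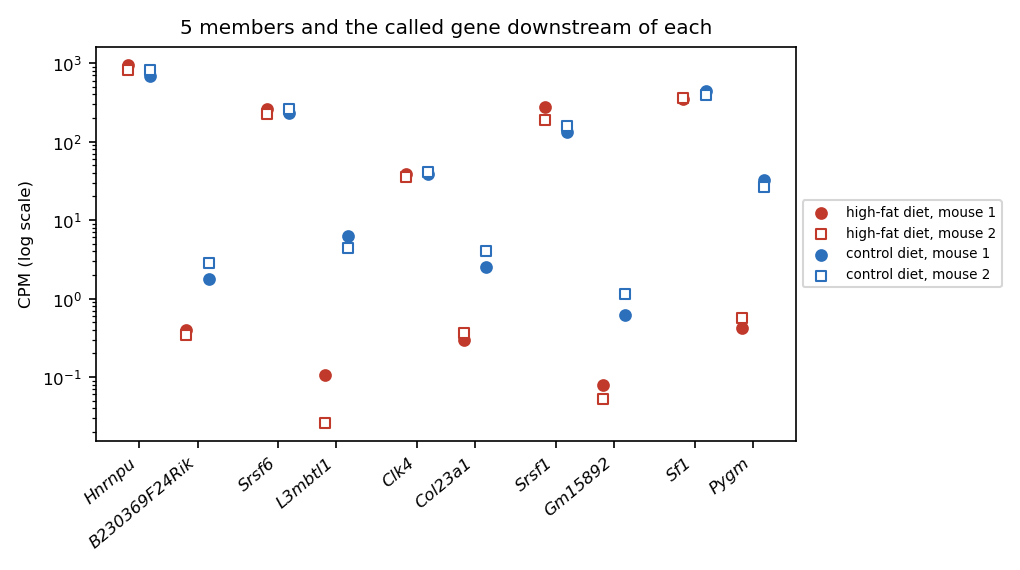
CPM on a log axis in each of the 4 libraries for 5 members and for the called gene within 10 kb downstream of each, with red for high-fat and blue for control diet. The neighbours lie lower in both HFD libraries, from 6.24-fold for B230369F24Rik to 77.4-fold for L3mbtl1, while the members next to them differ by less than 2-fold.

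The rest of the splicing machinery was read from 108 further genes, of which 106 were tested. Of these 4 were called higher and 2 lower, where 2.61% and 7.91% of all tested genes were. The median log2 fold change of the 106 was 0.06. With all 4 libraries, edgeR called 0 of 8 genes of the U1 snRNP, 0 of 15 of the U2 snRNP and 0 of the 8 further kinases that act on splicing factors. At an unadjusted p below 0.05 each of these lists held 2. That level was reached by 17.0% of the 106 genes and by 31.3% of all tested genes. Luc7l2, a U1 snRNP partner, had 160 and 112 CPM against 69.9 and 86.5 CPM without overlap (0.80, adjusted p = 0.0665). It was called higher by DESeq2 (adjusted p = 0.0156) and, in edgeR, with no filter (0.00355) and with the GC and length correction (0.53, adjusted p = 0.0467). Without CD mouse 2 its log2 fold change was 0.96. In the Sm core, the ring of proteins on spliceosomal RNAs, 1 of 7 was called, Snrpd1, with 22.6 and 20.7 CPM against 13.2 and 13.3 CPM (0.71, adjusted p = 0.0449). Among the tri-snRNP and catalytic genes, 1 of 23 was called, the helicase Dhx38, lower with 102 and 105 CPM against 201 and 155 CPM (-0.78, adjusted p = 0.0427). Both genes kept the diets apart in all libraries. Under the GC and length correction Snrpd1 stood at 0.38 and lost its call (adjusted p = 0.112).

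Of 32 further regulators 3 were called. Rbfox2, a binder of UGCAUG, rose with 69.2 and 59.7 CPM against 40.5 and 29.7 CPM (0.88, adjusted p = 0.0419), and Tia1, which helps the U1 snRNP at weak sites, rose with 32.2 and 25.6 CPM against 14.3 and 16.0 CPM (0.93, adjusted p = 0.0334). Srsf12, an SR protein, had 2 reads in all in the HFD libraries and 37 in the CD libraries, 20.1-fold by totals (95% interval 5.19 to 172, counting error only, edgeR adjusted p = 0.0284). Among 13 speckle and exon junction genes Pnisr rose with 72.1 and 67.5 CPM against 43.8 and 41.6 CPM (0.71, adjusted p = 0.0330). Qk, a quaking protein, with 244 and 187 CPM against 114 and 143 CPM (0.74, adjusted p = 0.0650), and Hnrnpa1, with 89.6 and 56.8 CPM against 29.7 and 46.7 CPM (0.94, adjusted p = 0.0930), did not overlap and were not called by edgeR with all libraries. DESeq2 called both higher (0.0158 and 0.0246), and without CD mouse 2 their log2 fold changes in edgeR were 0.91 and 1.30. Qk was also called higher with no filter (0.00430) and with the GC and length correction (0.0259). Each of the 6 calls was lost without HFD mouse 1 (adjusted p from 0.189 to 0.296) and without HFD mouse 2 (from 0.0696 to 0.172). Those of Snrpd1, Dhx38 and Srsf12 also ended without CD mouse 1 (0.0533, 0.0597 and 0.0550).

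The kinases that act on SR proteins next to the CLKs were level or uncalled. Srpk1, which phosphorylates SR proteins in the cytoplasm, had 68.2 and 74.4 CPM against 69.1 and 76.5 CPM (-0.03, adjusted p = 0.907). Srpk2 had 42.7 and 38.1 CPM against 29.1 and 30.6 CPM (0.44, adjusted p = 0.0999), and Dyrk1a, a related kinase of speckles, had 89.89 and 89.86 CPM against 111 and 118 CPM (-0.35, adjusted p = 0.143). Srpk1 overlapped between the diets, and Srpk2 and Dyrk1a did not.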

How the data were processed

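The deposited table held raw counts, whole reads per gene and library, for 53379 Ensembl gene identifiers, made by the authors from polyA RNA of 4 libraries (stranded mRNA kit, per the labels' protocols). The submitters' processing notes name BWA 0.7.12, cutadapt 1.15, FastQC 0.11.5 and DESeq2 1.24.0, with the builds GRCm38 and mm10. Not given in the sources used here are the counting program, its strand setting and its handling of reads with several matches.

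Symbols were matched for 53274 identifiers, and coordinates of whole genes are given where the identifier's version is that of GENCODE release M21. Those of exon stretches and promoter windows are given also where it is not, as for Srsf3, Srsf7, Tra2b and Srrm2. Genes were filtered with filterByExpr (minimum count 10, minimum total 15), scaled by TMM and tested with edgeR 4.0.16 (R 4.3.3) by the robust quasi-likelihood test, high-fat minus control diet with diet as the only term, all 4 libraries and Benjamini-Hochberg adjustment over 18422 genes. Values are CPM on TMM-scaled library sizes. The libraries of a diet come from mice numbered in the titles, so p-values rest on 2 mice per diet. The spread used for each gene is drawn toward a trend over all genes. Genes with average log2 CPM no lower than the lowest member were used as genes at the members' levels. Pseudogenes were matched with blastn 2.17.0, a pseudogene going to its best parent. The correction for GC content and length used splines with 5 degrees of freedom each per library. The edgeR fit of the main comparison was checked on simulated counts. The correction for GC content and length was checked only for removing an added GC trend. Its calls, and those with pseudogene reads added, were not checked on simulated counts. Alternatives were DESeq2 1.42.0, other scalings, no filter, no robust prior, the mouse number as a block and leaving out each library, and, chosen after seeing the data, pseudogene reads and the GC correction.

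The members were found by symbol, but the choice of symbols and of gene lists was made with earlier results of these data known. All 41 members are named, with the other splicing genes that were called (up to 4 a list, of smallest p). Luc7l2, Qk, Hnrnpa1, Srpk1, Srpk2 and Dyrk1a were named after their values were seen. Neighbours and pseudogenes were named after their values were seen.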

Additional observations from a re-analysis of the deposited data

How the results depend on the processing

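With no filter on low counts 1552 genes were called higher, 2231 lower, 2 members higher and 8 other splicing genes higher. DESeq2 called 1082 genes, 2 members and 7 other splicing genes higher and 1 member lower. RLE size factors called 0 members higher. Library totals without TMM gave a median log2 fold change of 0.0562 over the members. With the mouse number as a replicate block 0 members and 2 other splicing genes were called higher (567 genes higher and 1481 lower in all). The calls of Hnrnpd (adjusted p = 0.0678), Snrpd1 (0.0817) and Pnisr (0.0521) ended under this block. The numbers were not taken as pairs, since the titles number the mice within a diet and name no pairs. Deviations of same-numbered mice from their diet means correlated at -0.19 over 10312 genes. With 2 mice per diet this is the r of 0.19 between the within-diet ratios above with its sign reversed. Those ratios moved with GC content, so the value cannot decide whether the mice were paired. Leaving out 1 library gave 71 to 1934 genes called higher, 300 to 2534 lower, 0 to 6 members higher, 0 to 1 lower, 0 to 13 other splicing genes higher and 0 to 3 lower. Without a mouse of a diet, its lone library is assumed to vary like the other diet. The correction for GC content and length called 2 members lower. Over the 12 alternatives 32 members were called in no fit and 9 in at least 1, the causes were not tested, and no call changed its direction. With 2 mice per diet, an adjusted p that misses the threshold does not show equal levels.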

Other observations

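Genes of nonsense-mediated decay, the pathway that removes transcripts with early stop codons, were read beside the splicing factors. Of 10 tested 1 rose, Upf3b, an exon junction partner of Upf2, with 22.4 and 23.7 CPM in HFD against 11.1 and 14.3 CPM in CD libraries (log2 fold change 0.86, edgeR adjusted p = 0.0415), and 0 fell. The call of Upf3b ended without either HFD mouse (0.179 and 0.176) and without CD mouse 1 (0.0519), and under the GC and length correction (0.0711). Over all tested genes 2.61% were called higher and 7.91% lower. The median of the list was -0.24, with 8 negative values. Smg1, the kinase of Upf1, had 183 and 160 CPM against 242 and 306 CPM (-0.67, adjusted p = 0.0628). It lay below the control diet in both libraries, and was called lower by DESeq2 (0.0124), with no filter (0.0207) and without CD mouse 1 (-0.83, adjusted p = 0.0248).

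Malat1, a noncoding RNA held in nuclear speckles, had 1399 and 1246 CPM against 1781 and 3024 CPM, both below without a call (-0.86, adjusted p = 0.0926). It was called lower by DESeq2 (0.0154) and, in edgeR, with no filter (0.0225), with the GC and length correction (0.0377) and without CD mouse 1 (-1.19, adjusted p = 0.00906). Neat1, the RNA of paraspeckles, had 211 and 288 CPM against 261 and 283 CPM and overlapped (-0.12, adjusted p = 0.694).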
